A study of Homo sapiens with 19 samples.

Results

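HL-60-only regions were HL-60 peaks of H3K27ac (histone H3 acetylated at lysine 27), chosen by position alone, that were overlapped, by 1 bp or more, by no H3K27ac peak of Molm13, OCI-AML3 or K562. On chromosomes 1 to 22 and X they numbered 6357 of 20733 HL-60 peaks (30.7%), and they were compared with the 9040 HL-60 peaks (43.6%) that were overlapped in all 3 other lines. Of the other HL-60 peaks, 1544 were overlapped in 1 and 3792 in 2 other lines, and 3357 of the latter were shared with Molm13 and OCI-AML3. HL-60, Molm13 and OCI-AML3 are established lines from acute myeloid leukaemia (AML), and K562 is a line from chronic myeloid leukaemia. HL-60 and Molm13 cells were untransduced, whereas OCI-AML3 and K562 cells carried lentiviral dCas9-KRAB with an mCherry reporter and an sgRNA vector with a BFP reporter but no guide, and were sorted for both reporters, so that the vector and the line cannot be told apart between these pairs. The series holds 19 samples, of which the 4 H3K27ac peak lists, 1 library a line, were used here. There were no replicates, so no difference between lines was tested and a library cannot be told apart from its line. Absence from a list means that no peak was called, not that the mark was absent.

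H3K27ac is laid down by the acetyltransferases CBP and p300 and marks active promoters and enhancers. Promoters of broadly used genes carry it in most cell types, whereas enhancers, which lie away from transcription start sites (TSSs) and are bound by lineage transcription factors, are marked in a cell type dependent manner. HL-60 cells resemble granulocyte precursors, which make the proteases of primary granules.

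The sequences of some of the strongest HL-60-only regions, at TSSs and away from them, are given as examples and do not represent all members. The first 3 are the exon-free 200 bp stretches of the members with the highest fold enrichment at a TSS, with CpG dinucleotides in capitals, read from the plus strand of hg38 at chr19:37506639-37506838 (ZNF793), chr19:52336507-52336706 (ZNF610) and chr19:57888567-57888766 (ZNF814).
ZNF793: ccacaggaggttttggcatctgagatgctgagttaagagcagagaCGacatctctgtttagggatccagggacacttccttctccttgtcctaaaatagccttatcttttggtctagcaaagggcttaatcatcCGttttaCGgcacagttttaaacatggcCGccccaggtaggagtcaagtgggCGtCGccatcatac
ZNF610: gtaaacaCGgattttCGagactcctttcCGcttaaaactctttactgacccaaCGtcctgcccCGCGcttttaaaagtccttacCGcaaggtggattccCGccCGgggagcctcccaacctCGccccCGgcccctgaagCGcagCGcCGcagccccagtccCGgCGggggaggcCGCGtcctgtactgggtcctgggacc
ZNF814: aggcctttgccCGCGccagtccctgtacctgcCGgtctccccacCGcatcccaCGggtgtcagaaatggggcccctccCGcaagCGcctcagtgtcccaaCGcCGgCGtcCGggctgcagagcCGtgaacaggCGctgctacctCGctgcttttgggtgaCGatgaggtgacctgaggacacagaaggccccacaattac
They held 6, 18 and 15 CpGs. All lay at ZNF genes, and members at ZNF genes had a median ratio of observed to expected CpGs of 0.68. In the other members at TSSs this ratio was 0.25. CpGs were not marked in the sequences that follow. The next 3 come from the strongest members away from TSSs, at chr2:175463911-175464110 (nearest coding gene ATP5MC3), chr2:224034267-224034466 (an intron of SERPINE2) and chr20:59253546-59253745 (nearest coding gene EDN3, within ZNF831). Capitals mark matches, on either strand, to the letters searched for lineage factors, which were AGATAA for GATA factors, TGTGGT for RUNX, GAGGAAG for the ETS core bound by PU.1, TTGCNNAA for C/EBP, TGANTCA for AP-1 and CAGCTG for E-box proteins.
ATP5MC3: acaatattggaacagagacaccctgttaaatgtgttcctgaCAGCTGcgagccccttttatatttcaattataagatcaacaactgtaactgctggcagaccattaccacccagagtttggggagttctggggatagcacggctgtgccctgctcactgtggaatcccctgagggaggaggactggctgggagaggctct
SERPINE2: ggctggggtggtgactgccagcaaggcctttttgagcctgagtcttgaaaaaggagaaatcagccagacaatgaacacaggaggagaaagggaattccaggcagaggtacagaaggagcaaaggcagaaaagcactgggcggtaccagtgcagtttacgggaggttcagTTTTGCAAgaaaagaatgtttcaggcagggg
EDN3: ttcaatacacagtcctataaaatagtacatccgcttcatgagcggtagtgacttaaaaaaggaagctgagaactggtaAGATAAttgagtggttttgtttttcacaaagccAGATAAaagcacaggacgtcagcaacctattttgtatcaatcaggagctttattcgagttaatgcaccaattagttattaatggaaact
The stretch near ATP5MC3 held an E-box, that in SERPINE2 a C/EBP match, and that near EDN3 2 GATA matches. The last sequence is a whole member of 248 bp at chr9:60559993-60560240, 1 of 38 members in which bases recurred 171 bp apart. This was the spacing, of all tried, at which HL-60 peaks over 1 Mb from a coding TSS matched themselves best, and alpha satellite, the tandem repeat of human centromeres, has repeat units of about this length. Capitals mark bases that equal the base 171 positions earlier, 64 of the 77 that could be compared.
chr9 member: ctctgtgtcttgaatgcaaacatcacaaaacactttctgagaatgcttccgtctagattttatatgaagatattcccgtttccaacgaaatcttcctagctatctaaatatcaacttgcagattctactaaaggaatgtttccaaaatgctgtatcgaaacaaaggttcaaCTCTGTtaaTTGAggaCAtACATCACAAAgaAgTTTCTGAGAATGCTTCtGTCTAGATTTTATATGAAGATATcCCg

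HL-60-only regions were narrow and weak. The width of members had a median of 0.562 kb (95% interval 551 to 576 bp; quartiles 320 and 863 bp), against 1267 bp (1246 to 1288 bp) for peaks shared by all lines, and their median fold enrichment over the local background was 3.09 (3.08 to 3.09) against 4.77 (4.71 to 4.81). Intervals of medians are exact order-statistic intervals, those of shares are Wilson intervals, and both cover counting error over peaks only, since peaks of 1 library are not replicates. Together the members covered 4.06 Mb and the shared peaks 13.8 Mb. A q-value above 0.05 was given for 38.0% of members and 1.83% of shared peaks, and a q-value below 0.001 for 369 members (5.80%) and 6850 shared peaks (75.8%). The widest member spanned 5985 bp, and the highest fold enrichment of a member was 8.87, against 21.2 among shared peaks. Line-only peaks of the other lines were also narrower and weaker than the peaks those lines shared with all others. In Molm13, OCI-AML3 and K562 their median widths were 608, 724 and 904 bp against 2002, 2327 and 2840 bp. Their median fold enrichments were 3.17, 2.59 and 2.68 against 6.40, 4.11 and 3.65.

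**Figure D1:**
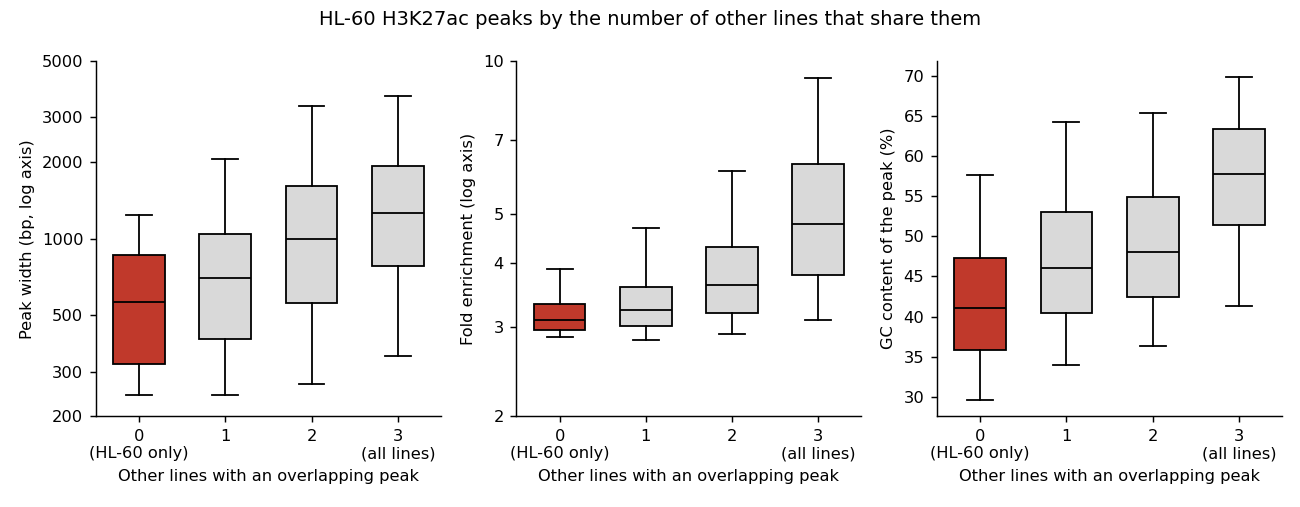
Width, fold enrichment and GC content of HL-60 peaks by the number of other lines with an overlapping peak (boxes, quartiles and median; whiskers, 5th and 95th percentiles; width and fold enrichment on log axes). All 3 medians were lowest in the 6357 HL-60-only peaks, at 0.562 kb, 3.09 and 41.1%, and highest in the 9040 peaks shared by all lines, at 1.27 kb, 4.77 and 57.7%.

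The rule itself favours narrow peaks, because a wide peak has more positions at which another list can overlap it. The HL-60-only share fell across 4 classes of equal size by peak width from 53.5% to 41.5%, 24.1% and 3.55%, and across 4 such classes by fold enrichment from 65.7% to 42.9%, 12.7% and 1.35%. Only 70 members lay in the highest class of fold enrichment. At the boundary of the rule, 114 members had a peak of another list within 200 bp, with medians of 551.5 bp and 3.09. On the other side, 229 HL-60 peaks overlapped by at most 200 bp had medians of 521 bp and 3.16. Most members were not near misses, as the nearest peak of any other line lay at a median of 18.3 kb, and the nearest Molm13, OCI-AML3 and K562 peak at 37.2, 36.2 and 53.5 kb.

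To ask where in genes the HL-60-only regions lay, each peak was placed at a TSS (within 500 bp of an annotated TSS of any gene), or else in an exon, an intron or between genes. Of the members, 528 lay at a TSS (8.31%, 95% interval 7.65 to 9.01%), 533 over an exon (8.38%), 3287 in an intron (51.7%) and 2009 between genes (31.6%). Of peaks shared by all lines, 7413 lay at a TSS (82.0%, 81.2 to 82.8%) and 9.72% in an intron. The contrast held within peaks of like width, as the TSS share of members ran from 6.57% to 20.1% over the 4 classes of width and that of shared peaks from 71.5% to 86.0%. It also held within each class of fold enrichment. From the weakest class to the strongest, the TSS share was 7.28%, 8.19%, 9.56% and 50% in members. In shared peaks it was 49.4%, 62.2%, 78.6% and 93.3%. The strongest class held only 70 members, and the 95% interval of their TSS share was 38.6 to 61.4%. The TSS share of peaks listed in 1 line only was 8.96%, 11.3% and 16.4% in Molm13, OCI-AML3 and K562, where such peaks numbered 9467 of 35069, 10931 of 37531 and 20949 of 37424. A low TSS share was therefore found in the line-only peaks of each line.

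**Figure D2:**
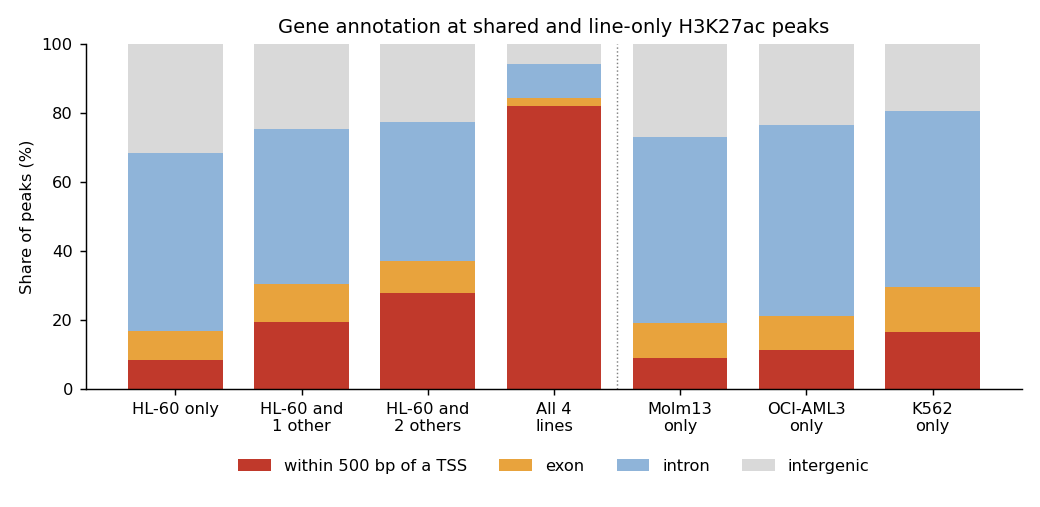
Share of H3K27ac peaks at a TSS, over an exon, in an intron or between genes, for HL-60 peaks by the number of other lines sharing them and for peaks listed in 1 other line only. The TSS share was 8.31% in HL-60-only peaks and 82.0% in HL-60 peaks found in all 4 lines, and 8.96% to 16.4% in the line-only peaks of the other lines.

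The members were also poor in CpG dinucleotides, which cluster in CpG islands at many promoters. Their median GC content was 41.1% against 57.7% in shared peaks, and the median ratio of observed to expected CpGs was 0.19 against 0.70. The ratio exceeded 0.6 in 161 members (2.53%) and in 65.8% of shared peaks. Most shared peaks lay at TSSs, and the contrast was smaller away from them. There, members and shared peaks had median GC contents of 40.5% and 47.1% and median CpG ratios of 0.18 and 0.25. Molm13-only, OCI-AML3-only and K562-only peaks had median CpG ratios of 0.20, 0.19 and 0.21. A low ratio was therefore found in the line-only peaks of each line. The nearest TSS of a protein-coding gene lay at a median of 38.1 kb from a member, whereas the shared peaks had a median of 0 kb. For members and shared peaks away from TSSs, these medians were 42.3 and 13.5 kb. Of the members, 902 (14.2%) lay within 10 kb of an HL-60 peak overlapped in 1 or more other lines. The median distance to the nearest such peak was 83.0 kb. These values were not set against other HL-60 peaks.

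Zinc finger genes of chromosome 19 led the members at TSSs. This group, taken as coding genes whose symbol is ZNF and a number, was chosen after the values were seen. The strongest member lay at the promoter of ZNF793 (chr19:37506277-37507230) with a fold enrichment of 8.87, followed by ZNF610 (chr19:52336132-52336969, 8.59) and ZNF814 (chr19:57888418-57889064, 7.63), and the nearest peak of any other line lay 36.6, 38.3 and 26.9 kb away. Most such genes encode DNA-binding repressors with a KRAB domain, many of which act on transposable elements. The next members lay at the noncoding ZNF790-AS1 (6.77) and at the promoter shared by ZNF568 and ZNF829 (6.31), and ZNF471 (6.01) and ZNF229 (5.91) were also among the strongest 10. In all, 25 of the 528 members at TSSs lay at a ZNF gene (4.73%), 22 of them on chromosome 19, against 259 of the 7413 shared peaks at TSSs (3.49%). The members at ZNF genes made up 6 of the strongest 10, 11 of the strongest 20 and 16 of the strongest 50. Their median fold enrichment was 4.87 against 3.12 in the 503 other members at TSSs, and their median CpG ratio was 0.68 against 0.25.

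Counted over genes, 183 of the 248 ZNF genes of chromosome 19 (73.8%) had an HL-60 peak at a TSS, 147 (59.3%) a Molm13 peak and 170 each (68.5%) a peak of OCI-AML3 or K562. HL-60 thus had the most marked genes of this group, although it had the fewest over all 19618 coding genes, at 43.7%, against 52.8%, 56.6% and 54.9% in Molm13, OCI-AML3 and K562. A TSS was marked in HL-60 only for 20 of these 248 genes (8.06%, 95% interval 5.28 to 12.1%), for 1 of 264 ZNF genes on other chromosomes (0.379%) and for 9 of 1184 other coding genes of chromosome 19 (0.76%), with 98 genes (0.500%) over all coding genes. Marked in 1 other line only were 0 of 248 for Molm13 (Wilson upper bound 1.53%, against 0.647% of all coding genes), 2 for OCI-AML3 (0.806% against 1.93%) and 12 for K562 (4.84% against 4.69%). The groups were not tested against each other, and reads from near-identical copies of these genes were kept by the authors only where they mapped uniquely.

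**Figure D3:**
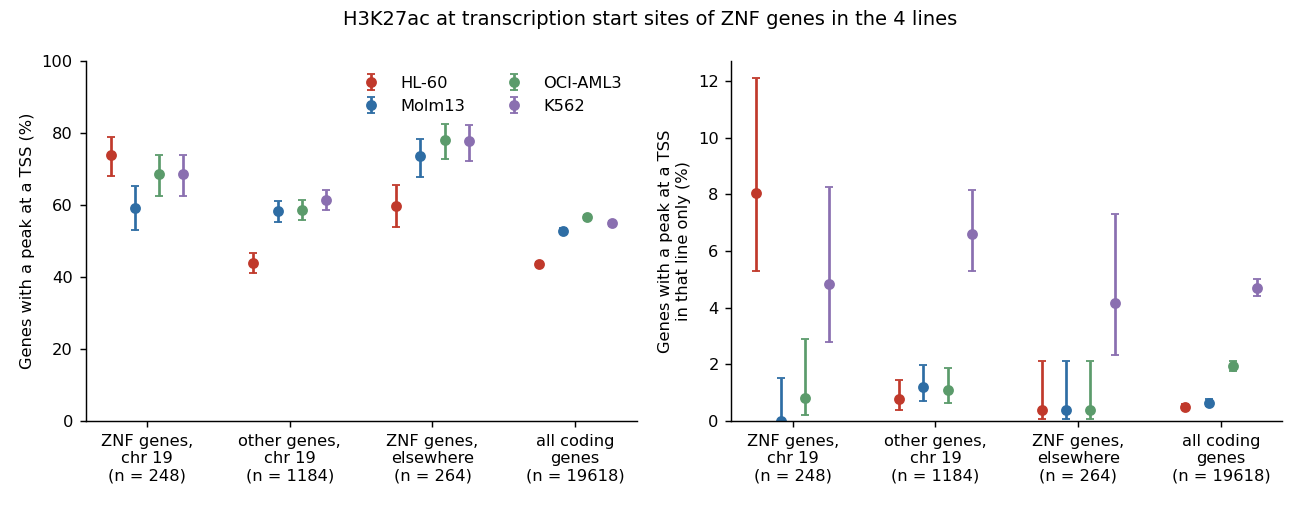
Percent of genes with an H3K27ac peak within 500 bp of a TSS (left) and with such a peak in that line only (right), for ZNF genes of chromosome 19, other coding genes of chromosome 19, ZNF genes of other chromosomes and all coding genes (points, share; bars, Wilson 95% interval). HL-60 was the highest line for ZNF genes of chromosome 19 in both panels, at 73.8% and 8.06%, and the lowest over all coding genes, at 43.7% and 0.500%.

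Other members at TSSs lay at genes of varied function. The strongest was at MZB1 (chr5:139386799-139390506, 3708 bp, fold enrichment 6.08), which encodes an endoplasmic reticulum protein of plasma cells, and a peak of OCI-AML3 lay 0.581 kb from it. GALNT14, a glycosyltransferase gene (chr2:31137903-31138241, 5.95), and APP, which encodes the amyloid precursor protein (chr21:26169413-26171151, 5.89), were more isolated, with the nearest peak of another line at 180 and 201 kb. Members at KIR3DL2, a receptor gene of natural killer cells (5.58), and at UMODL1 (5.31) lay 6.99 and 2.66 kb from a Molm13 peak. Members lay at a TSS of a protein-coding transcript for 170 of 19618 coding genes (0.867%). With TSSs of all transcripts counted, noncoding ones included, 351 of the 528 members lay at a coding gene and 177 at noncoding genes only.

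The strongest members away from TSSs were spread over many loci, some of them satellite-like. That near ATP5MC3, a gene of mitochondrial ATP synthase (chr2:175463298-175464723, 8.52), lay between genes at 282 kb from its TSS and 240 kb from any peak of another line. In SERPINE2, a protease inhibitor gene (chr2:224033782-224034952, 6.55), the intronic member lay 7.07 kb from an OCI-AML3 peak, and no line had a peak at the SERPINE2 TSS. The member near EDN3, which encodes endothelin-3, overlapped an exon of ZNF831 (chr20:59252399-59254893, 2495 bp, 6.42) and lay 174 kb from the nearest peak of another line. Members in introns of CACNA2D4, a calcium channel subunit gene (6.11), of the receptor gene NOTCH1 (6.09) and of CDH1, which encodes E-cadherin (5.71), followed, together with 1 over an exon of CTNNBIP1, an inhibitor of beta-catenin (5.78). Those in NOTCH1 and CDH1 lay 4.58 and 2.29 kb from a peak of another line, so that close and distant neighbours occurred side by side. Narrow members far from coding TSSs also ranked high, at 861 kb from ZNF716 (246 bp, 5.92) and 2709 kb from TUBA3C (250 bp, 5.35). The latter, and members nearest to SPATA31A5 (5.27 and 5.26), had 74.7% to 83.1% identity between bases 171 bp apart.

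Nearest coding genes were then counted, with each member assigned to the gene whose TSS was closest. The members reached 4055 of 19618 coding genes (20.7%), and 117 genes (0.596%) had 5 or more. The highest counts belonged to TUBA3C with 29 and SRGAP2C with 19, but the closest of these members lay 1145 and 1362 kb from the respective TSS, in centromere regions. MCTP2, which encodes a membrane protein with calcium-binding C2 domains, had 14 members, which were all of its HL-60 peaks, against 2 Molm13, 0 OCI-AML3 and 5 K562 peaks. Its TSS was marked in HL-60 only, and the nearest member lay 0.197 kb from it. IGF1R, the receptor gene for insulin-like growth factor 1, had 12 members among 14 HL-60 peaks, against 0 Molm13, 3 OCI-AML3 and 1 K562 peaks. By contrast, GPC5, a glypican gene, had 13 members among 14 HL-60 peaks but also 17, 14 and 11 peaks in the other lines, and NCAM2, a cell adhesion gene, had 12 among 15 against 40, 24 and 21. At GPC5 and NCAM2 the other lines thus had many peaks, but at other positions than the members. PCDH7 and ADGRL3, adhesion genes of the nervous system, had 11 and 10 members at median distances of 1336 and 169 kb, XYLT1, a gene of proteoglycan synthesis, had 10, and all 7 HL-60 peaks nearest to SOX9 were members.

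To describe the promoters of genes near the members, the nearest coding gene was checked for a peak at its TSS. Of the 5829 members away from TSSs, 44.6% had a nearest coding gene with a peak at its TSS in HL-60 (95% interval 43.3 to 45.9%), near the 43.7% of all coding genes, and 2218 (38.1%) had a gene marked in no line. The respective shares for shared peaks away from TSSs were 68.3% and 9.28%. Among the 301 strongest distal members, those with a q-value below 0.001, the shares were 49.2% and 36.5%, close to those of all distal members. For all distal members, the nearest gene was marked in Molm13, OCI-AML3 and K562 in 50.1%, 55.6% and 49.4%. Over all coding genes these shares were 52.8%, 56.6% and 54.9%. Shares of members count a gene once per member, and those of coding genes once per gene.

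Members that lay together were joined into domains when gaps were at most 50 kb. At this gap 4585 members stood alone and 629 pairs formed, whereas 149 domains of 3 or more held 514 members (8.09%). Of these domains, 115 had 3 members, 19 had 4 and 15 had 5 or more, and 52 contained no peak of any other line. Molm13-only, OCI-AML3-only and K562-only peaks, which were more numerous, formed 549, 952 and 2494 such domains with 22.1%, 38.0% and 72.6% of their peaks. These shares cannot be compared as clustering, since a longer list has more neighbours within a given gap. Of the 149 HL-60 domains, 54 held a member with a q-value below 0.001.

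The domain with the most members spanned 232 kb of IGF1R (chr15:98668076-98900273) and held 11 with fold enrichments of 2.87 to 3.87. HL-60 peaks covered 11.5 kb of it, OCI-AML3 1.96 kb in 1 peak, and Molm13 and K562 had none. Of the 11 members, 8 were intronic and 3 lay at TSSs of other transcripts annotated there. A q-value below 0.001 was given for 1 of the 11. In ZBTB16, which encodes the myeloid progenitor factor PLZF, and towards NNMT (chr11:114071703-114183407), 8 members covered 12.9 kb. Here Molm13 and OCI-AML3 had 3 peaks each over 10.1 and 7.51 kb, and K562 had 1. The strongest of the 8 had a fold enrichment of 4.92 and lay 1.05 kb from a Molm13 peak, and the first 3 lay 0.189 to 0.92 kb from a peak of Molm13 or OCI-AML3, so that part of this domain bordered regions marked in those lines.

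In contrast, the domain around CLEC5A (chr7:141928391-141976360) held 6 members over 6 kb and no peak of any other line. CLEC5A encodes a C-type lectin receptor of neutrophils and monocytes, and the adjoining MGAM and TAS2R38 encode an intestinal maltase and a taste receptor. Its strongest member (chr7:141944617-141946430, 1814 bp, 4.32) lay 0.503 kb from the nearest coding TSS. In ERG, an ETS factor gene of haematopoietic stem cells (chr21:38440392-38517414), 5 members had fold enrichments of 3.06 to 5.19, with a single OCI-AML3 peak of 0.416 kb and none in Molm13 or K562. The ERG members lay 17.6 to 57.2 kb from the nearest coding TSS of the gene. Only OCI-AML3 had a peak at a coding TSS of ERG, which was not the TSS nearest to these members. A domain of 5 members lay at BCR, the partner of ABL1 in the fusion gene of chronic myeloid leukaemia, and RSPH14 (chr22:23130863-23209960), where Molm13 had 1 peak over 0.5 kb, OCI-AML3 2 over 1.79 kb and K562 2 over 2.91 kb. Of these 5 members, 2 were nearest to RSPH14.

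Further domains with many members included 7 members over CDH1, CDH3 and TANGO6 with 14 peaks of the other lines, 6 at ANP32A with 4 and 6 at GRAMD4 and CELSR1 with 19. Domains of 5 members at AKAP13 and KLHL25, at CCDC30 and at MBD5 contained no peak of another line. Their members were weak, with highest fold enrichments of 3.38, 3.63 and 3.25, and none had a q-value below 0.001. ZNF genes of chromosome 19 recurred, with 5 members in a domain nearest to ZNF814, ZNF256, ZNF418 and ZNF587B, 4 at ZNF667 and ZNF471 and 3 at ZNF793 and ZNF540, the last 2 domains without a peak of another line. The domain with the second most members (chr13:17793281-18037161) held 9 members and no peak of another line. It lay in the centromere region of chromosome 13, with up to 78.9% identity between bases 171 bp apart.

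**Figure D4:**
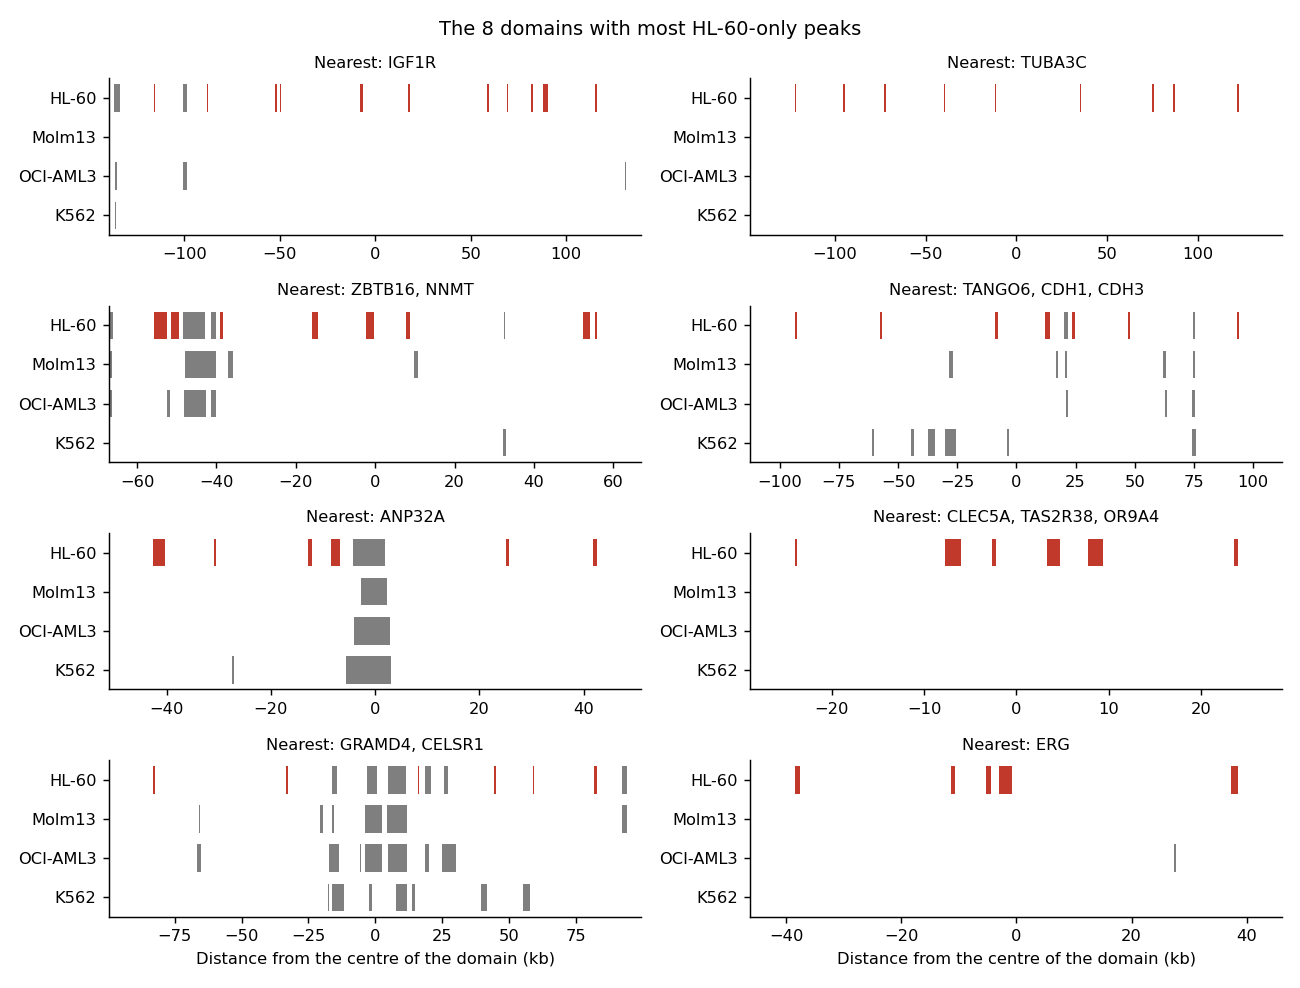
H3K27ac peaks of the 4 lines in the 8 domains with the most HL-60-only peaks, as distance from the domain's centre in kb (red, HL-60-only; grey, all other peaks). The domains at CLEC5A and TUBA3C held no peak of another line and that at ERG held 1, whereas those at CDH1 and CELSR1 held 14 and 19.

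Satellite-like members numbered 38 by an identity of at least 60% at 171 bp, 18 of them on chromosome 13, against 1 of the 9040 shared peaks, and their median width was 397 bp. Members over 1 Mb from a coding TSS numbered 235 (3.70%) against 4 shared peaks. Over all HL-60 peaks, 54 (0.26%) were satellite-like and 297 (1.43%) lay over 1 Mb away. Of Molm13-only, OCI-AML3-only and K562-only peaks, 14, 17 and 7 were satellite-like. The shares of these 3 sets that lay over 1 Mb away were 1.72%, 1.53% and 0.697%. Leaving out all members over 1 Mb from a coding TSS left 6122.

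The HL-60 label was checked against lineage markers at TSSs. All 8 granulocyte precursor markers, among them MPO, ELANE and CEBPE, were marked in HL-60, as in Molm13 and OCI-AML3, with 3 of 8 in K562. None of 7 erythroid markers was marked in HL-60, Molm13 or OCI-AML3 and 7 of 7 were in K562, and none of 5 T cell markers was marked in any line. Of B cell markers, CD79A was marked in all 4 lines, PAX5 in HL-60 only and EBF1 in K562 only. The PAX5 peak was a member of 580 bp with a fold enrichment of 2.93 and a −log10 q-value of 1.12, which is a q-value above 0.05. What these marks contributed to the other members was not tested.

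Genes of haematopoietic programmes were then read against the 20.7% of coding genes with a member nearest to them. Of 16 myeloid transcription factors, 7 had members (43.8%), 22 in all. They were ZEB2 with 8, RUNX3 with 5, RUNX1 with 3, CEBPB and FLI1 with 2 each and KLF4 and ETV6 with 1 each. Some lay far from the TSS, up to 1365 kb at ZEB2, 315 kb at RUNX1 and 128 kb at KLF4. Among these 7 genes, only RUNX3 had a member with a q-value below 0.001. The share was not adjusted for the distance between genes. RUNX3 had 12 HL-60 peaks, as many as Molm13, against 10 in OCI-AML3 and 0 in K562, but its TSS was marked in Molm13 and OCI-AML3 and not in HL-60. Its strongest member (chr1:25080960-25083031, 2072 bp, 3.91) lay 116 kb from that TSS. ZEB2, a repressor with roles in myeloid differentiation, had 17 HL-60 peaks against 18, 28 and 49 in Molm13, OCI-AML3 and K562.

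Of 12 growth factor and chemoattractant receptors, 4 had members (33.3%). KIT, the stem cell factor receptor gene, had 4 members among 6 HL-60 peaks, against 2, 4 and 7 in Molm13, OCI-AML3 and K562, and its strongest lay 5.60 kb from the TSS (chr4:54663568-54663843, 276 bp, 4.23). CXCR4, CSF3R and CCR2, which encode receptors for CXCL12, G-CSF and CCL2, had 3, 2 and 1. The members at KIT lay 0.711 to 115 kb from the nearest coding TSS, and those at CXCR4 87.8 to 274 kb. Those at CSF3R lay 138 to 150 kb away, and that at CCR2 26.7 kb. Of CXCR4, CSF3R and CCR2, only CXCR4 had a marked TSS in HL-60. Of 13 genes of the stem cell and HOX programme, 3 had members (23.1%), with 5 at ERG, 5 at MEIS1 and 1 at HLF, although only 1 of the 13 had a marked TSS in HL-60, against 6, 10 and 5 in Molm13, OCI-AML3 and K562. All 5 HL-60 peaks nearest to MEIS1, a cofactor of HOX proteins, were members, and Molm13, OCI-AML3 and K562 had 14, 15 and 12 peaks there at other positions. The MEIS1 members lay 52.5 to 342 kb from the nearest coding TSS.

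Genes of 2 granule lists had members at about the background share. Of 13 primary granule genes, 10 had a marked TSS in HL-60 and 3 had a member (23.1%), BPI, RNASE3 and CST7 with fold enrichments of 2.71 to 3.20. Of 12 genes for later granule proteins, 2 had a member (16.7%), and that in CEACAM8, a surface protein gene of granulocytes (chr19:42606811-42607062, 252 bp, 4.64), was the only peak nearest to this gene in the 4 lists. None of 6 NADPH oxidase subunit genes had a member. Among 4 lists of other lineages and functions, members were nearest to 3 of 17 erythroid and megakaryocyte genes, 2 of 13 T and NK cell genes, 2 of 8 B cell genes and 3 of 12 cell cycle and survival genes, between 15.4% and 25% in these 4 lists, around the background.

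The letters bound by lineage factors were searched in the central 300 bp of peaks on both strands, and matches could overlap each other. A match to the PU.1-type ETS core was found in 8.63% of the 5829 distal members (95% interval 7.94 to 9.38%), in 18.4% of the 1627 distal shared peaks and in 13.6% of all HL-60 peaks. AP-1 letters were found in 9.06%, 14.1% and 7.93%, and RUNX letters in 19.7%, 23.2% and 17.6%. C/EBP letters, those of the factors that drive granulocyte differentiation, were found in 16.7% of both distal sets and in 13.4% of all HL-60 peaks. GATA letters were more frequent in distal members, at 20.6% against 16.3%, and TATAAA was found in 28.8% against 15.3%. Line-only distal peaks of Molm13, OCI-AML3 and K562 had GATA letters in 18.1%, 20.9% and 26.6%, TATAAA in 25.9%, 27.5% and 26.8%, and the PU.1-type core in 9.79%, 12.3% and 9.27%. The windows of distal members were richer in A and T, with a median GC content of 40.7% against 47.7%, and the part of base composition in these shares was not tested. In the 301 distal members with a q-value below 0.001, whose median GC content was 45.0%, the PU.1-type core was found in 12.3% (9.05 to 16.5%), GATA letters in 16.3% and TATAAA in 21.9%, against 17.8%, 16.1% and 14.5% of distal shared peaks at that limit.

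The members were unevenly spread over chromosomes. Their share of HL-60 peaks was highest on chromosomes 13 (48.4%, 95% interval 44.5 to 52.4%), 4 (45.7%), 18 (41.3%) and 21 (39.6%), and lowest on X (6.53%, 4.50 to 9.40%), 8 (10.1%), 19 (17.1%) and 17 (18.0%). On chromosome 8 the HL-60 list held 357 peaks in all, 1.72% of the list, against 1657 Molm13, 2359 OCI-AML3 and 1530 K562 peaks. This was 19.3% of the mean of the other lines, while the other chromosomes had 46.3% to 72.1%. Only 36 members lay there, and the cause of the low number was not tested. Chromosome 13 held 22 of the 369 members with a q-value below 0.001, and chromosome 19 held 25, of which most stood at TSSs of ZNF genes.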

How the data were processed

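Chromatin immunoprecipitation followed by sequencing was carried out by the authors, per the labels with 15 µg of chromatin sheared to 200 to 700 bp and 2.5 µg of antibody against H3K27ac. The submitters' processing notes list Trim Galore 0.4.5, Bowtie2 2.3.4, MACS2 2.1.1 and hg38, and the study's methods state uniquely mapped reads and broad peaks at q 0.05. The control library is not given in the sources used here. The deposited lists hold, for each peak, a score, a fold enrichment over the local background as a ratio, and p- and q-values as −log10, as the authors' caller wrote them. The deposited score was used only to check the lists. The largest q-value lay between 0.0947 and 0.0995, above the stated limit. Read depth was unknown. A total of 20814 HL-60, 35206 Molm13, 37606 OCI-AML3 and 37484 K562 peaks were deposited, and 81, 137, 75 and 60 on Y or other contigs were left out.

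Overlaps, GENCODE 44 annotation and hg38 sequence were computed with Python 3.11.15, pandas 2.3.3, NumPy 2.4.6 and pysam 0.24.0. The overlap, domain and interval code was tested on simulated peaks and checked against bedtools 2.31.1. The members, gene lists and letters searched were chosen with earlier results of these data known. Named were the strongest members at and away from TSSs, the genes and domains with most members, and listed genes. The alternatives tried were a required overlap of 50%, q-value limits of 0.05 and 0.001, equal list lengths, extension by 1 kb, leaving out a list, and other TSS and domain limits. Repeats and the other samples were not analysed here, and the list of monocyte genes and some other listed genes are not reported here.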

Additional observations from a re-analysis of the deposited data

How the results depend on the processing

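Of 78 values recomputed for the 8 main results, 45 stayed within 1.5 times of a count or within the 95% interval of a share or median, and 33 did not. The q-value limit moved the numbers of members and of nearest genes most. With a q-value below 0.05 in all lists, 4007 HL-60-only peaks and 66 domains remained, the median width of members was 487 bp, and the TSS share of shared peaks was 82.9%. With a q-value below 0.001, these were 618 peaks, 11 domains and 538 nearest genes, with TSS shares of 20.9% and 91.7% and median widths of 728 and 1456 bp for members and shared peaks, respectively. A limit that shortens the other lists as well can turn a shared peak into an HL-60-only one, which is why 618 exceeds the 369 members with such q-values. With at least 50% of the HL-60 peak covered, the TSS shares were 9.52% and 84.8% and the median widths 596.5 and 1244 bp. With the other lists cut to the length of the HL-60 list, they were 9.52% and 86.6%, and 590 and 1307.5 bp, with 254 domains. Extending the other peaks by 1 kb gave a TSS share of shared peaks of 79.9%. Leaving out Molm13 gave 81.0% and a median width of 1245 bp for shared peaks, and leaving out OCI-AML3 gave a TSS share of members of 9.23%. Leaving out K562 gave 9.65% for members, and 66.8% and 1203 bp for shared peaks. A TSS distance of 1000 bp gave 11.5% and 83.5%, and TSSs of protein-coding genes alone gave 2.61% and 74.7%. Domain gaps of 25 and 100 kb gave 53 and 317 domains. Under all these alternatives the members were narrower and less often at TSSs than the shared peaks. Leaving out HL-60 peaks over 1 Mb from a coding TSS, chosen after seeing the data, moved no main result beyond these limits. For the 10 genes with most members, 64 of 80 recomputed counts stayed within 1.5 times, and all 10 fell beyond it with a q-value below 0.001. No paired analysis was possible because each line had 1 library and no test was run. The depth of the libraries was unknown, so whether a region missing from a list lay below the detection limit there could not be determined.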
